A study of Sus scrofa with 6 samples.

Results

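Translation initiation factors are the proteins that load an mRNA onto the ribosome and set it at a start codon. A fully grown oocyte makes little new RNA, so its maturation depends on which of its stored mRNAs are translated, and initiation is the step at which that choice is made. The cap-binding protein eIF4E, its scaffold eIF4G and the helicase eIF4A bring the mRNA in. The factor eIF2 brings the initiator tRNA, eIF3 organises the small subunit, eIF1 and eIF1A check the start codon, and eIF5B joins the large subunit.

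The transcripts of these factors were measured in oocytes of prepubertal gilts, 3 libraries from follicles 3 to 6 mm across (large) and 3 from follicles 1.5 to 1.9 mm across (small). Ovaries came from an abattoir, and the oocytes had been stripped of cumulus cells and pooled before RNA was isolated. No animal had been treated. The series set oocytes of different developmental competence side by side, and follicle size is the contrast in its labels. The genes were chosen by name, as those beginning with EIF and a digit from 1 to 6, with at least 10 reads in at least 3 of the 6 libraries. They came to 42 of 19271 named genes, and every gene with such a name met the count minimum. EIF4EBP3 (6 reads in large-follicle library 3) and EIF2AK1 (11 reads in large-follicle library 1) lay nearest to it. Another 5 factor genes, EIF2AK2, EIF3M, EIF4B, EIF4G2 and EIF6, were listed under Ensembl identifiers, so they stand beside the 42 and are not counted among them. EIF2B1, EIF2S3, EIF3C, EIF5 and EIF5A were not analysed here.

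Total counts were 8015357 to 56887282 per library, with large-follicle library 3 the shallowest. That library stood apart on the first principal component, which held 39.2% of the variance, at a score of 54.5 against -15.0 to -6.03 for the others. Calls among the chosen genes that turn on it are given with and without it. Of 10 oocyte markers 9 were in the table, and their summed level was 22570 to 26020 TPM (the deposited level, corrected for length and scaled to a common total) in large-follicle and 31650 to 33230 TPM in small-follicle libraries. Of the oocyte markers 7 were lower in large follicles and 1 (BTG4) higher at an unadjusted p under 0.05 by edgeR, where 8.17% of all genes were lower and 9.85% higher. None passed, and DESeq2 called 4 lower. Of 15 granulosa and cumulus markers 12 were in the table, summing to 98.3 to 125 TPM and 89.1 to 153 TPM, with AMH, PTX3 and LHCGR at 0 reads in at least 1 library. Theca and stroma markers (12 of 13 in the table) summed to 40.6 to 45.7 TPM and 48.5 to 53.3 TPM, with CYP17A1, INSL3, LUM and ACTA2 at 0 reads in at least 1 library. Blood, immune and endothelial markers (10 of 11) summed to 9.44 to 12.2 TPM and 13.2 to 14.0 TPM, with CD68, HBB, VWF and CDH5 at 0 reads in at least 1 library. The oocyte, theca and blood sums did not overlap between the groups, all lower in large follicles, and their part in the results was not tested. Much of the theca sum was TAGLN, at 28.7 to 33.4 TPM in large-follicle and 35.7 to 36.4 TPM in small-follicle libraries. Much of the granulosa and cumulus sum was KITLG, at 50.1 to 62.8 TPM over all libraries. Other markers of that list were uneven among libraries of the same group. INHA stood at 5.67, 10.4 and 13.7 TPM in large-follicle and at 35.6, 24.8 and 4.17 TPM in small-follicle libraries. INHBA stood at 8.83, 14.55 and 32.4 TPM and at 28.2, 20.6 and 4.66 TPM. FST varied less, at 17.0 to 26.9 TPM over all libraries. The blood sum was apart through CSF1R, which DESeq2 called lower: without this gene, picked after its values were seen, the sums were 7.0, 5.21 and 4.67 TPM in large-follicle libraries against 5.99, 5.96 and 5.51 TPM in small-follicle ones and overlapped. In pooled cells, fewer cells of a type and less RNA per cell cannot be told apart. Nothing in the labels says that the replicates were separate collections, so the spread behind each p-value is that of these libraries and may be technical.

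The summed level of initiation factor transcripts overlapped between oocytes of both follicle sizes, and no single factor gene passed the test with all libraries. The 42 genes together made up 0.634%, 0.613% and 0.616% of the TPM in large-follicle libraries 1, 2 and 3 against 0.598%, 0.609% and 0.614% in the small-follicle ones, so the groups overlapped. None of the 42 passed at an adjusted p under 0.05 by edgeR's quasi-likelihood test over all 14091 genes, where 0.0639% of genes passed, 0.0142% higher and 0.0497% lower in large follicles. The mean was higher in large follicles for 19 of the 42, where 50.8% of all genes had a higher mean. At an unadjusted p under 0.05 there were 5 (EIF5B, EIF2AK4, EIF4G3, EIF2B5 and EIF3G), or 11.9% against 18.0% of all genes, with 4 higher in large follicles against 9.85% of all genes and 1 lower against 8.17%. DESeq2 called 1, EIF5B, where it called 6.25% of all genes that it adjusted. The median log2 difference (large minus small follicles) was -0.010 over the 42 genes and 0.004 over all genes, and 33 of the 42 lay within 0.2 of 0. The share of all genes within that span was not counted. The coefficient of variation over the 6 libraries had a median of 7.50% for the 42 genes and 12.8% for all genes, whose median level was lower (18.4 TPM against 46.5 TPM).

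**Figure D1:**
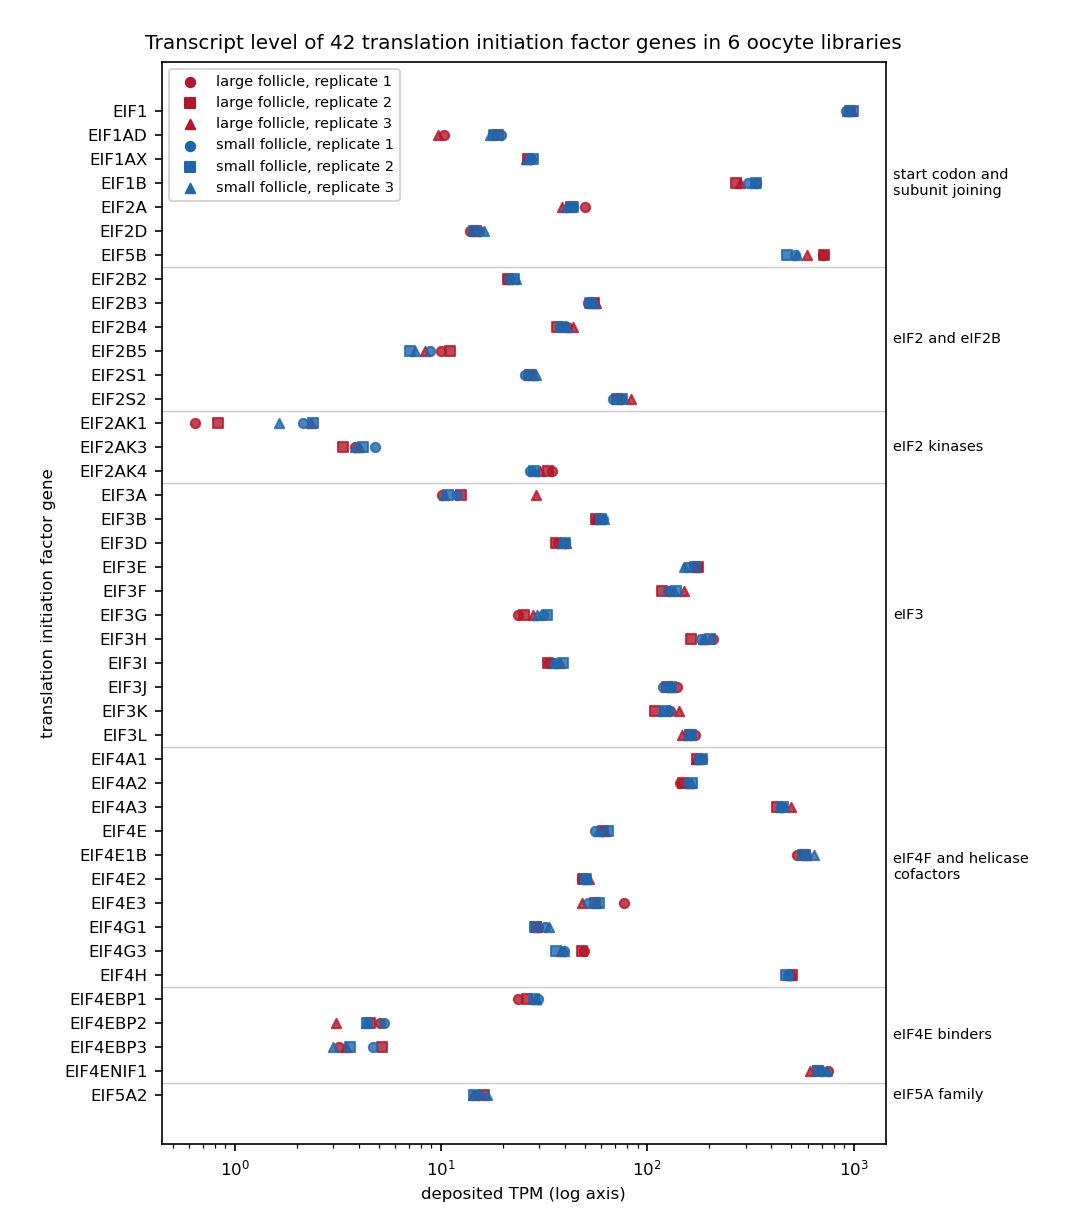
Deposited TPM (horizontal, log axis) of the 42 initiation factor genes (vertical, grouped by role); each point is 1 library, red for large and blue for small follicles, with a shape for each replicate number. Mean levels run from 1.67 TPM (EIF2AK1) to 956 TPM (EIF1), and the libraries of both groups mostly lie on top of each other, with EIF3A in large-follicle library 3, EIF2AK1 and EIF1AD as visible exceptions.

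The levels of the factors spanned a wide range. On the TPM scale 15 of the 42 genes had a mean above 100 and 5 had a mean below 10. EIF1, which guards start codon choice, led with a mean of 956 TPM over the 6 libraries. Next among the 42 was EIF4ENIF1, a protein that binds eIF4E and represses and stores mRNAs, at 693 TPM. EIF5B followed at 592 TPM and EIF4E1B at 583 TPM. EIF4G2, listed by its Ensembl identifier and so outside this ranking, had a mean of 722 TPM, above EIF4ENIF1. EIF4E1B is the form of eIF4E known from germ cells and eggs of frog, fish and mouse. The helicase cofactor gene EIF4H had a mean of 487 TPM. EIF4A3, whose helicase marks exon junctions, had 452 TPM. The genes below 10 TPM were the eIF2 kinase genes EIF2AK1 and EIF2AK3 (1.67 and 4.0 TPM), the eIF4E inhibitor genes EIF4EBP2 and EIF4EBP3 (4.46 and 3.85 TPM) and EIF2B5 (8.81 TPM), which encodes the catalytic subunit of eIF2B.

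EIF5B, the GTPase that joins the large ribosomal subunit, had the smallest p of the 42 genes. In CPM (reads scaled to a common library total with TMM factors, not corrected for length) it stood at 842, 824 and 709.5 in large-follicle libraries 1, 2 and 3, against 605, 568 and 619 in small-follicle libraries 1, 2 and 3. All 3 large-follicle libraries lay above all small-follicle libraries, with library 3 the lowest of the large ones. The means were 792 ± 71.9 and 597 ± 26.4 CPM (SD, n = 3 each), a 1.33-fold ratio and a log2 difference of 0.41 (SE 0.084). It ranked 121 by p among all genes and did not pass (adjusted p = 0.0849 by edgeR's quasi-likelihood test). It passed by DESeq2 (log2 difference 0.40, adjusted p = 0.000986) and without large-follicle library 3 (0.47, adjusted p = 0.00612 by edgeR). Without that library 13.2% of all genes passed. EIF5B passed in no other setting, with adjusted p from 0.0685 (no filter) to 0.418 (without small-follicle library 2), both by edgeR. In Sscrofa11.1 the gene lies on chromosome 3 from 54861759 to 54930826.

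The other genes that act on start codons and the initiator tRNA had groups that overlapped. EIF1 stood at 377, 372 and 396 CPM in large-follicle and at 358, 395 and 361 CPM in small-follicle libraries. Its paralogue EIF1B, at 76.1 to 98.2 CPM over all libraries, had a mean of 310.1 TPM. The ratio of EIF1 to EIF1B on the TPM scale was 2.82, 3.57 and 3.50 in large-follicle and 3.00, 2.94 and 2.82 in small-follicle libraries, with overlap. EIF1AX, one of the genes for eIF1A, varied little, between 35.5 and 38.7 CPM. EIF1AD, whose protein carries an eIF1A-like domain, was uneven: it stood at 12.3, 22.0 and 11.7 CPM in large-follicle and at 23.0, 21.7 and 20.2 CPM in small-follicle libraries. Large-follicle libraries 1 and 3 were low and library 2 lay among the small-follicle values. Its log2 difference was -0.44 (SE 0.21) and did not pass (adjusted p = 0.314 by edgeR). It was -0.28 without large-follicle library 1, -0.84 without library 2 and -0.31 without library 3, and passed in none of these. EIF2A and EIF2D, which can bring tRNA to the ribosome by other routes, stood at 58.3 to 74.0 and 16.2 to 18.6 CPM, and neither passed. Over the 7 genes of this role the median log2 difference was -0.016, with 3 higher and 4 lower in large follicles.

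The factor eIF2 and its exchange factor eIF2B set how much initiator tRNA is ready, and stress lowers that supply when kinases phosphorylate the alpha subunit of eIF2. The gene of that subunit, EIF2S1, stood at 30.6, 30.3 and 32.7 CPM in large-follicle and at 29.2, 32.0 and 32.7 CPM in small-follicle libraries. The groups overlapped fully, and the log2 difference was -0.0083 (SE 0.086). EIF2S2, the beta subunit, stood at 159, 148 and 179 CPM and at 142, 160.3 and 149.7 CPM, with a log2 difference of 0.10 (SE 0.089) that was 0.017 without large-follicle library 3. Per length its transcript was more abundant than that of EIF2S1 in every library, with a TPM ratio of 2.50 to 2.99.

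Of the eIF2B subunits measured, the one with the exchange activity differed most between the groups. EIF2B5 stood at 12.6, 13.5 and 10.6 CPM in large-follicle and at 10.9, 8.97 and 9.24 CPM in small-follicle libraries. Large-follicle library 3 lay below small-follicle library 1, so the groups overlapped. The log2 difference was 0.35 (SE 0.13) and did not pass (adjusted p = 0.213 by edgeR), while without large-follicle library 3 it was 0.42 (adjusted p = 0.0460). The other subunit genes EIF2B2, EIF2B3 and EIF2B4 had log2 differences of -0.076, 0.026 and 0.045, each smaller than its SE. They stood between 12 and 29.3 CPM. Over the 6 genes of eIF2 and eIF2B the median log2 difference was 0.035, with 4 higher and 2 lower in large follicles.

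Among the kinases of eIF2, GCN2 had the most abundant transcript. EIF2AK4, which encodes GCN2, a sensor of amino acid shortage, stood at 113, 105 and 99.6 CPM in large-follicle and at 87.0, 92.6 and 90.5 CPM in small-follicle libraries. The groups did not overlap. The means were 106 ± 6.73 and 90.0 ± 2.82 CPM (SD, n = 3 each), and the log2 difference of 0.24 (SE 0.076) did not pass (adjusted p = 0.161 by edgeR), but passed without large-follicle library 3 (0.27, adjusted p = 0.0292). On the TPM scale its mean was 30.2, against 17.9 for EIF2AK2, 4.0 for EIF2AK3 and 1.67 for EIF2AK1. EIF2AK3, which encodes the endoplasmic reticulum sensor PERK, stood at 5.57, 4.72 and 5.93 CPM and at 6.81, 6.13 and 5.48 CPM, and the groups overlapped. EIF2AK1, the haem-regulated kinase gene, stood at 0.533, 0.670 and 1.98 CPM in large-follicle and at 1.75, 2.01 and 1.34 CPM in small-follicle libraries. Large-follicle libraries 1 and 2 were lower than every other library, and library 3 lay among the small-follicle values. These values rest on 11, 37 and 16 reads in large-follicle and 99, 68 and 54 reads in small-follicle libraries. Its log2 difference was -0.94 (SE 0.43; adjusted p = 0.290 by edgeR), and -1.47 (SE 0.31; adjusted p = 0.0157) without large-follicle library 3. EIF2AK2, listed by its Ensembl identifier and encoding PKR, the kinase that senses double-stranded RNA, stood at 43.1 to 49.7 CPM, with a log2 difference of 0.083 (SE 0.078).

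**Figure D2:**
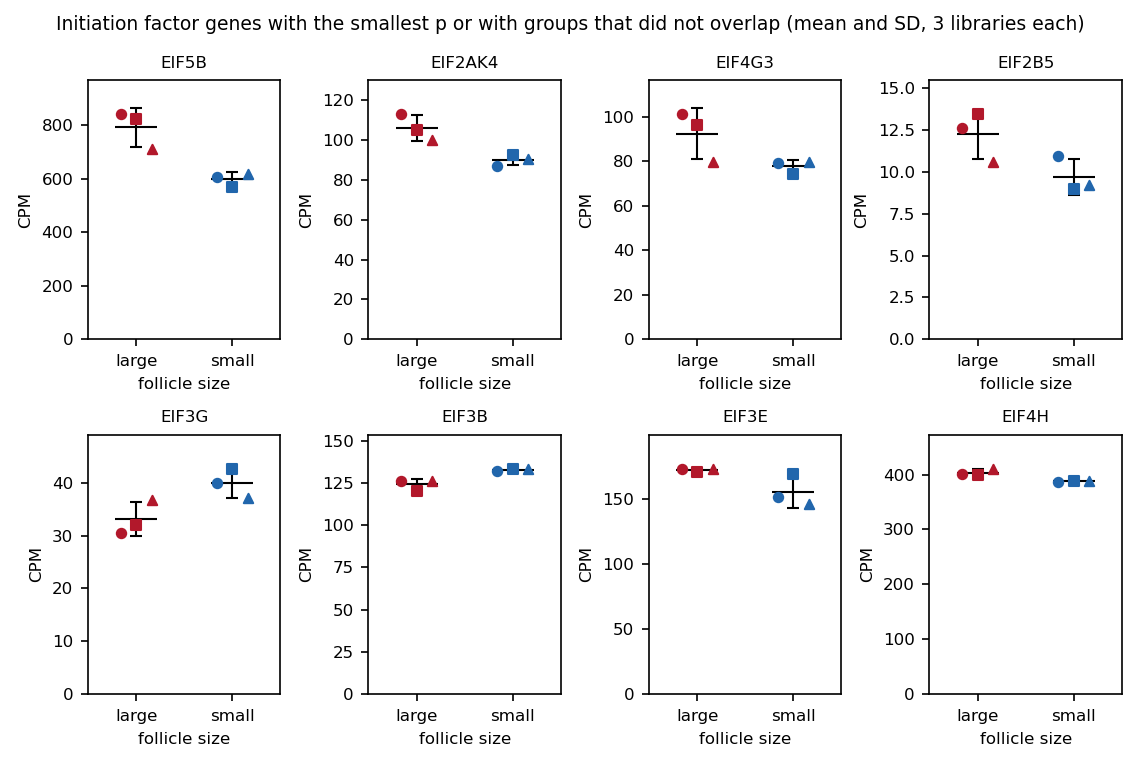
CPM (vertical, from 0) in large-follicle and small-follicle libraries for EIF5B, EIF2AK4, EIF4G3, EIF2B5, EIF3G, EIF3B, EIF3E and EIF4H; each point is 1 library, the dash is the mean of 3 libraries and the bar its SD. EIF5B, EIF2AK4, EIF4G3, EIF3E and EIF4H lie higher in all large-follicle libraries, EIF3G and EIF3B lie lower, and EIF2B5 overlaps.

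The multisubunit factor eIF3 had 11 of its genes among the 42, and they differed more from each other in level than between follicle sizes. Mean levels ran from 14.1 TPM for EIF3A and 28.3 TPM for EIF3G to 167 TPM for EIF3E and 188 TPM for EIF3H. EIF3L, the most read of them, stood at 327, 300.4 and 288 CPM in large-follicle and at 304, 315 and 296 CPM in small-follicle libraries, with the groups overlapping. The 11 log2 differences had a median of -0.013, with 5 higher and 6 lower in large follicles, and none passed. The subunit genes EIF3D, EIF3F, EIF3H, EIF3I, EIF3J and EIF3K had log2 differences from -0.078 to 0.059, each smaller than its SE. EIF3M, listed by its Ensembl identifier, stood at 333 to 379 CPM with a log2 difference of 0.040 (SE 0.073).

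EIF3G, an RNA-binding subunit, had the smallest p of the eIF3 genes. It stood at 30.6, 32.0 and 36.7 CPM in large-follicle and at 40.0, 42.7 and 37.1 CPM in small-follicle libraries. All large-follicle libraries lay below all small-follicle libraries, with large-follicle library 3 close to small-follicle library 3. The log2 difference was -0.28 (SE 0.098) and did not pass (adjusted p = 0.182 by edgeR), and it was -0.36 (adjusted p = 0.0219) without large-follicle library 3. EIF3B, part of the core of the complex, stood at 126, 120.5 and 126 CPM in large-follicle and at 132, 133 and 134 CPM in small-follicle libraries, again without overlap. Its log2 difference was small, -0.10 (SE 0.067), and did not pass. EIF3E had the opposite order, with 173, 170.5 and 174 CPM in large-follicle and 152, 169.6 and 146 CPM in small-follicle libraries (log2 difference 0.15, SE 0.077). The gap between its groups was narrow, since small-follicle library 2 lay close to the large-follicle values.

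EIF3A, the largest subunit and a scaffold of the complex, was set apart by 1 library. It stood at 21.3, 25.4 and 61.5 CPM in large-follicle and at 24.6, 22.7 and 21.2 CPM in small-follicle libraries. Large-follicle library 3 was far above the other libraries, which lay together. The log2 difference was 0.60 (SE 0.41; adjusted p = 0.495 by edgeR) with that library and 0.032 (SE 0.10) without it. In log2 CPM this value lay 1.18 above the gene's mean, the largest deviation of any of the 42 genes in any library, and it rests on 498 reads. EIF3B and EIF3L stood at 126 and 288 CPM in that library, within or below the range of their other values. EIF3D, EIF3E, EIF3F and EIF3K also had their highest value there, at 78.0, 173.5, 48.65 and 113 CPM. For EIF3F and EIF3K the highest value elsewhere was 44.2 and 100.3 CPM.

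**Figure D3:**
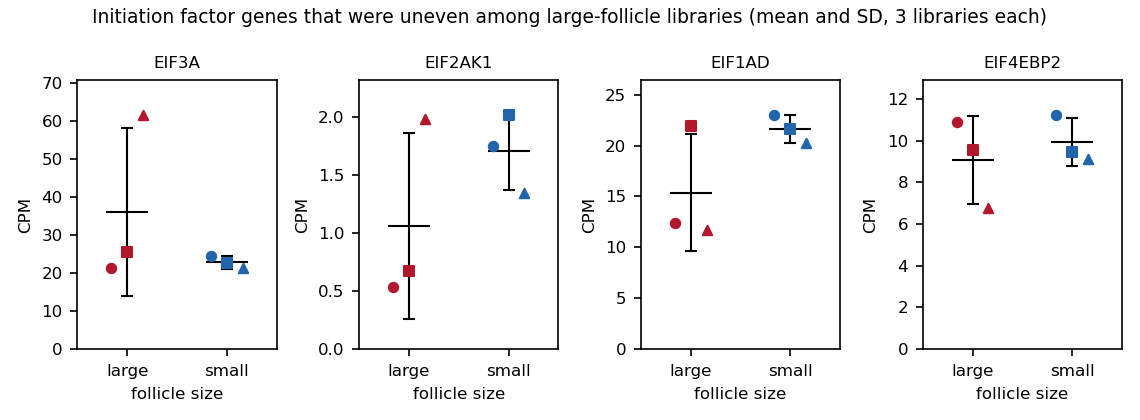
CPM (vertical, from 0) of EIF3A, EIF2AK1, EIF1AD and EIF4EBP2 in large-follicle and small-follicle libraries; each point is 1 library, the dash is the mean of 3 libraries and the bar its SD. Large-follicle library 3 (triangle) is high for EIF3A and low for EIF4EBP2. Large-follicle libraries 1 and 2 are low for EIF2AK1, and large-follicle libraries 1 and 3 are low for EIF1AD.

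Among the proteins that bind the cap, the germline form was the most abundant transcript per length. EIF4E1B had 531, 583 and 587 TPM in large-follicle and 588, 568 and 641 TPM in small-follicle libraries, whereas EIF4E had 61.2, 61.2 and 62.5 TPM and 55.9, 64.3 and 57.7 TPM. The ratio of EIF4E1B to EIF4E was 8.67, 9.52 and 9.39 in large-follicle and 10.5, 8.84 and 11.12 in small-follicle libraries. That ratio was high in every library and overlapped between the groups. In reads the genes were closer, at 119 to 141 CPM for EIF4E1B and 104 to 122 CPM for EIF4E, since CPM does not allow for length. The TPM ratio thus rests mostly on the transcript lengths behind the deposited TPM, which were not checked. Neither gene differed beyond its error between follicle sizes (log2 differences -0.073, SE 0.077, and 0.063, SE 0.083). EIF4E2, the cap-binding protein of a repressor complex, stood at 144, 142 and 158 CPM and at 145, 151 and 149 CPM, with a TPM ratio to EIF4E of 0.782 to 0.883. EIF4E3, another form, was at 46.3 to 73.3 CPM, with its highest value in large-follicle library 1.

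The genes for proteins that hold eIF4E back were led by EIF4ENIF1, which is linked to early loss of ovarian function in women. It stood at 828, 720.1 and 686 CPM in large-follicle and at 753, 745 and 797 CPM in small-follicle libraries, the highest mean CPM of the 42 genes over the 6 libraries. The large-follicle libraries enclosed the small-follicle ones, and the log2 difference was -0.039 (SE 0.084). On the TPM scale it exceeded EIF4E 9.87- to 12.8-fold and EIF4E1B 1.05- to 1.42-fold in each library. EIF4EBP1, an inhibitor that mTOR switches off by phosphorylation, stood at 13.3, 14.3 and 16.5 CPM and at 16.3, 15.9 and 15.9 CPM (log2 difference -0.14, SE 0.11). EIF4EBP2, of the same family, stood at 10.9, 9.54 and 6.79 CPM and at 11.2, 9.47 and 9.11 CPM (-0.10, SE 0.17). The groups overlapped for both, with large-follicle library 3 highest for EIF4EBP1 and lowest for EIF4EBP2. EIF4EBP3, the third of that family, had 0.623 to 1.07 CPM. In Sscrofa11.1 EIF4ENIF1 lies on chromosome 14 from 48156835 to 48204701 and EIF4E1B on chromosome 2 from 81277086 to 81281668.

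**Figure D4:**
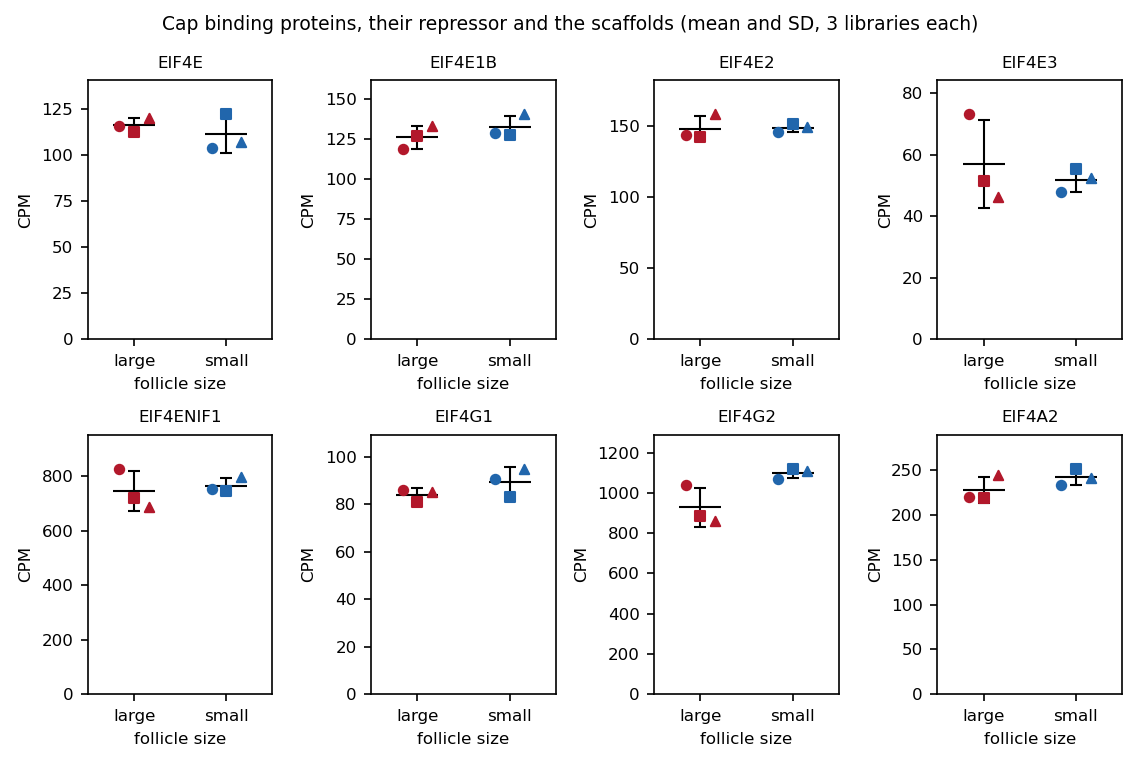
CPM (vertical, from 0) of cap-binding protein genes (EIF4E, EIF4E1B, EIF4E2, EIF4E3), the repressor EIF4ENIF1, the scaffolds EIF4G1 and EIF4G2 and the helicase EIF4A2; each point is 1 library, the dash is the mean of 3 libraries and the bar its SD. The groups overlap in every panel except EIF4G2, where all large-follicle libraries lie below all small-follicle libraries.

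None of the scaffold genes passed with all 6 libraries. EIF4G1, the main scaffold, stood at 85.8, 80.8 and 85.2 CPM in large-follicle and at 90.8, 82.8 and 95.0 CPM in small-follicle libraries, with overlap (log2 difference -0.094, SE 0.079). Its paralogue EIF4G3 stood at 101, 96.1 and 79.6 CPM in large-follicle and at 79.4, 74.4 and 79.5 CPM in small-follicle libraries. Large-follicle libraries 1 and 2 were clearly higher, and library 3 lay just above the small-follicle values in CPM and among them in TPM. The log2 difference of EIF4G3 was 0.25 (SE 0.096; adjusted p = 0.210 by edgeR), and 0.34 (adjusted p = 0.0145) without large-follicle library 3. EIF4G2, which lacks the part that binds eIF4E and serves initiation without it, is listed by its Ensembl identifier and stood at 1042, 884 and 862 CPM in large-follicle and at 1070.0, 1122 and 1112 CPM in small-follicle libraries. Its groups did not overlap, and the log2 difference of -0.24 (SE 0.086) did not pass (adjusted p = 0.184 by edgeR).

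Set against each other per length, EIF4G2 was far the most abundant scaffold. Its TPM was 20.7 to 27.6 times that of EIF4G1. The TPM ratio of EIF4G2 to EIF4G3 was 14.9, 13.3 and 15.7 in large-follicle and 19.5, 21.8 and 20.2 in small-follicle libraries, with no overlap. The ratio of EIF4G3 to EIF4G1 was 1.66, 1.68 and 1.32 in large-follicle and 1.23, 1.27 and 1.18 in small-follicle libraries, also with no overlap. These ratios were formed after the values were seen and are given without a test.

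The helicase genes and their cofactors had log2 differences within 0.1 of 0. EIF4A1 stood at 196, 180.1 and 186 CPM in large-follicle and at 185, 197 and 186 CPM in small-follicle libraries, and EIF4A2, its close paralogue, at 219.8, 219 and 245 CPM and at 234, 252 and 242 CPM. The groups overlapped for both, with log2 differences of -0.016 (SE 0.070) and -0.091 (SE 0.075). The deposited counts could share reads between such close paralogues, which was not tested. EIF4A3 stood at 211, 194 and 238 CPM and at 205, 216 and 204 CPM, where large-follicle library 3 was highest and library 2 lowest. EIF4H stood at 401, 398 and 411 CPM in large-follicle and at 386, 388 and 388 CPM in small-follicle libraries. Its groups did not overlap, but the log2 difference was only 0.059 (SE 0.063) and did not pass. Over the 10 genes grouped as cap-binding proteins, scaffolds, helicases and helicase cofactors the median log2 difference was 0.015, with 5 higher and 5 lower in large follicles. That group includes EIF4E2 and EIF4A3. EIF4B, the other cofactor, is listed by its Ensembl identifier and stood at 232 to 271 CPM (0.088, SE 0.073).

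Of the factors with later roles, EIF5A2, a hypusine-bearing protein that helps peptide bonds form, stood at 28.3, 29.3 and 27.0 CPM in large-follicle and at 28.0, 27.2 and 30.4 CPM in small-follicle libraries. EIF6, which keeps free large subunits from joining too early, is listed by its Ensembl identifier and stood at 88.1, 103 and 129 CPM and at 106, 98.6 and 101 CPM. Both overlapped between the groups, and the highest and lowest EIF6 values were both in large-follicle libraries. Their log2 differences were -0.011 (SE 0.087) and 0.060 (SE 0.12).

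**Figure D5:**
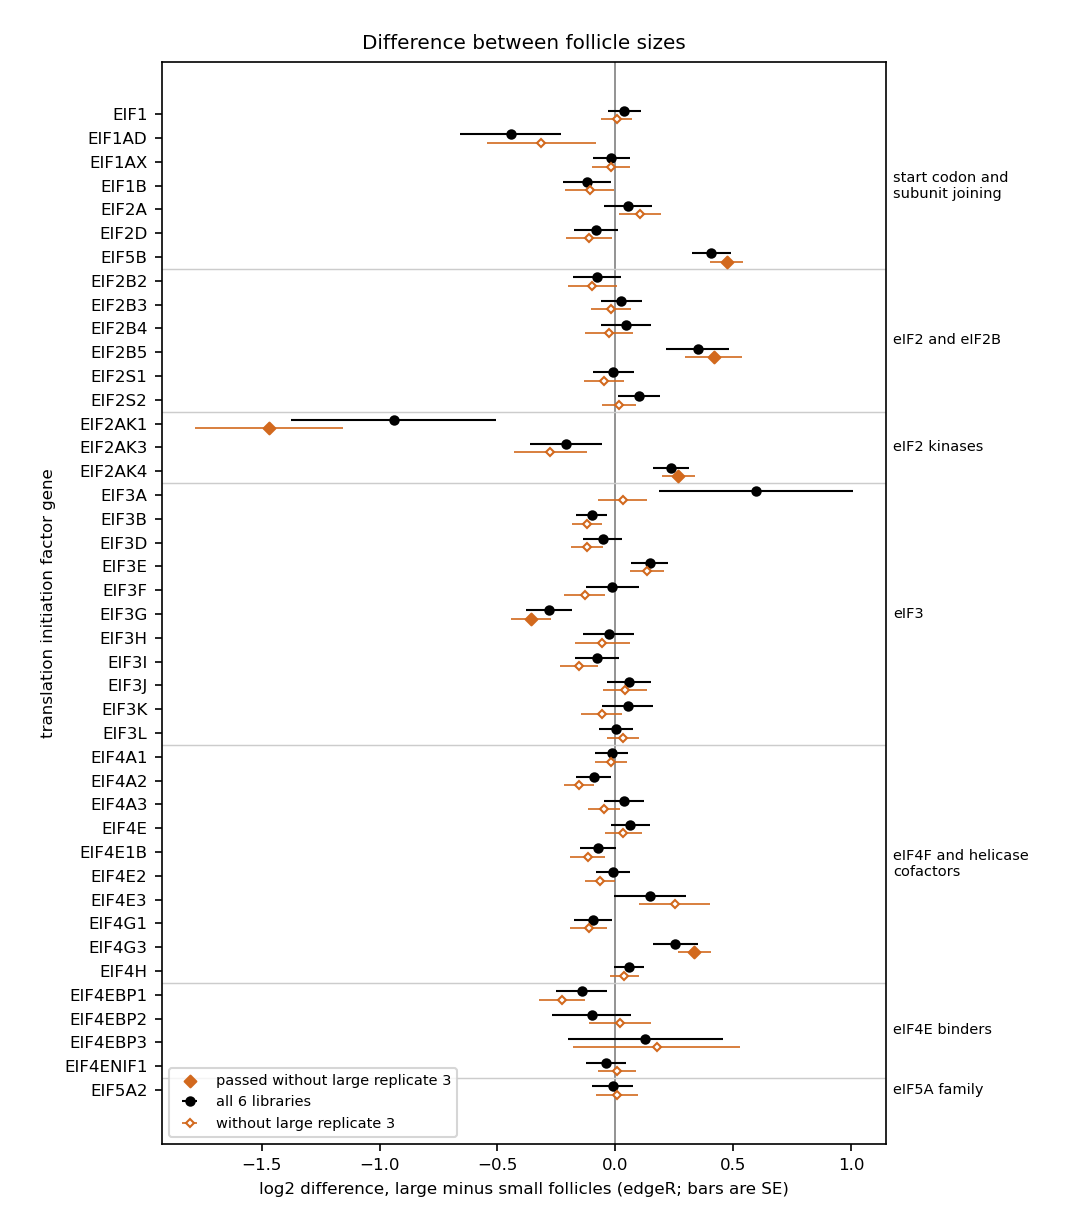
Log2 difference, large minus small follicles (horizontal; edgeR, bars are SE), for the 42 initiation factor genes (vertical, grouped by role), from all 6 libraries (black) and without large-follicle library 3 (orange; filled where the adjusted p was under 0.05). Most genes lie near 0; EIF5B, EIF2B5, EIF2AK4 and EIF4G3 lie to the right and EIF2AK1, EIF1AD, EIF3G and EIF2AK3 to the left in both comparisons, while EIF3A moves from 0.60 to 0.032.

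Groups that did not overlap in CPM were found for 7 of the 42 genes. The 5 that were higher in every large-follicle library (EIF5B, EIF2AK4, EIF4G3, EIF3E and EIF4H) compare with 12.1% of all genes, and the 2 that were lower (EIF3G and EIF3B) with 11.6%. As shares of the 42 these are 11.9% and 4.76%. Without large-follicle library 3, from 2 against 3 libraries, 6 of the 42 passed, or 14.3%, where 13.2% of all genes passed by edgeR. Of these 4 rose (EIF5B, EIF4G3, EIF2AK4 and EIF2B5), where 7.79% of all genes rose, and 2 fell (EIF2AK1 and EIF3G), where 5.37% fell. The share among the initiation factors was thus near that of all genes. In Sscrofa11.1 EIF2AK4 lies on chromosome 1 from 131244818 to 131355240, EIF4G3 on chromosome 6 from 79022222 to 79382062, EIF2B5 on chromosome 13 from 122060408 to 122070327 and EIF3G on chromosome 2 from 68966221 to 68970648. The median log2 difference of the 42 was -0.023 in that comparison.

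Other genes that feed into initiation were counted in lists by function. With all 6 libraries no gene of any list passed over all genes by edgeR or by DESeq2. Their values without large-follicle library 3, where 13.2% of all genes passed by edgeR, are not given here. In the mTOR list, whose kinase frees eIF4E from its inhibitors, 17 of 21 genes were tested, with 7 higher and 10 lower in large follicles and a median log2 difference of -0.029. RPTOR, the subunit by which mTOR complex 1 finds its substrates, stood at 29.9 ± 2.90 and 35.8 ± 0.141 CPM (SD, n = 3 each; log2 difference -0.25, SE 0.091), and RPS6KA1, a ribosomal S6 kinase gene, at 4.73 ± 0.824 and 6.02 ± 0.248 CPM (-0.39, SE 0.15). At an unadjusted p under 0.05 this list had 0 higher and 3 lower genes, where 9.85% of all genes were higher and 8.17% lower; the same shares stand behind the counts of the lists that follow. In the list around eIF2 phosphorylation, 15 of 16 genes were tested (9 higher, 6 lower, median 0.11), with 3 higher and 2 lower at an unadjusted p under 0.05. Its smallest p values belonged to catalytic subunits of the phosphatase that acts on eIF2: PPP1CB stood at 207 ± 15.4 and 179 ± 6.63 CPM (0.21, SE 0.078), and PPP1CA at 43.4 ± 3.94 and 50.9 ± 2.63 CPM (-0.24, SE 0.091).

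The partners at the cap and the poly(A) tail had 21 of 24 genes tested, 10 higher and 11 lower, with a median of -0.089 and with 3 higher and 3 lower at an unadjusted p under 0.05. PABPC1L, the poly(A)-binding protein of oocytes, had a mean of 169 ± 10.6 CPM for large follicles against 201 ± 10.1 CPM for small ones (SD, n = 3 each; log2 difference -0.25, SE 0.077). CPEB4, which binds a tail-side element of stored mRNAs and controls their polyadenylation, stood at 249 ± 37.4 and 200.5 ± 8.24 CPM (0.32, SE 0.10). Neither passed (adjusted p = 0.155 and 0.166 by edgeR), and neither overlapped between the groups. Other initiation and recycling factors had 11 of 11 tested (7 higher, 4 lower, median 0.052), with 1 gene at an unadjusted p under 0.05, METAP2, an enzyme that removes the first methionine (0.17, SE 0.075). ABCF1, a partner of eIF2, was next (0.14, SE 0.073). Elongation and termination factors had 9 of 12 tested (3 higher, 6 lower, median -0.040), with no gene at an unadjusted p under 0.05, against 18.0% of all genes. EEF1E1, a protein of the tRNA synthetase complex, differed by 0.21 (SE 0.12), and EEF2, the translocase, by -0.13 (SE 0.074).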

How the data were processed

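RNA was sequenced from 3 libraries of large-follicle and 3 of small-follicle pig oocytes, grouped by title. The table the authors deposited has 19296 rows, each with a raw read count per library and a TPM value; the submitters' processing notes name the build Sscrofa11.1. Aligner, counter, annotation and strand setting: not given in the sources used here. The kit was directional, per the labels' protocols. Rows named by a date (25, with a mean 0.153% of reads) were left out. Of 4604 rows that carry an Ensembl identifier 853 were given a symbol. Positions are those of RefSeq genes in that build.

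All genes were tested together with edgeR 4.0.16 in R 4.3.3 (quasi-likelihood F test, TMM, filterByExpr, robust, group alone) and Benjamini-Hochberg adjustment. SE was obtained as the size of the log2 difference over the square root of F. The method was tested on simulated data. Alternatives were DESeq2 1.42.0, other scalings and filters, limma 3.58.1 on log2(TPM + 1), the replicate number as a block, and each library left out. Values in every library are given for the 6 genes per direction with the smallest p, the 5 with the highest mean CPM, the 13 measured of 14 genes fixed by name and the 2 smallest p of each role, and further genes by range. Of each list of other pathway genes 2 are named. Genes and lists were chosen with earlier results of these data known. Within a group, any pair of libraries differed beyond sampling noise, with a chi-square of 10.7 to 22.4 for each degree of freedom.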

Additional observations from a re-analysis of the deposited data

How the results depend on the processing

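None of the 42 genes passed in the comparison of all libraries, nor with DESeq2's size factors or library size alone in edgeR. None passed without a filter, with limma on the deposited TPM, or with the block. At 5 CPM 40 of the 42 were tested, without EIF2AK1 and EIF4EBP3, and none passed. DESeq2 called 1 and gave EIF2AK1 no adjusted p. Leaving out 1 library gave 0 to 6, with 6 only without large-follicle library 3 and 0 otherwise. Over all genes 9 passed, against 0 with the size factors of DESeq2 (2525 at an unadjusted p under 0.05), 14 with library size alone, 710 by DESeq2, 52 without a filter, 19 at 5 CPM and 0 with limma on the TPM (2193 at an unadjusted p under 0.05). Leaving out 1 library gave 0 to 1899. The replicate number as a block gave 24 genes in all and 0 of the 42; same-numbered libraries did not deviate together (correlations -0.095, 0.003 and -0.158), so the numbers were not taken as pairs.

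The genes whose sign turned were not called in any setting. Without large-follicle library 3 the sign also turned for EIF2B3 (-0.018), EIF2B4 (-0.027) and EIF3K (-0.057). EIF1 was -0.010 and EIF4A3 -0.010 with library size alone. EIF3L was -0.0020 with DESeq2's size factors, -0.049 with library size alone, -0.0015 by DESeq2, -0.022 without a filter, -0.031 at 5 CPM and -0.0068 with limma on the TPM. Leaving out 1 library gave -0.050 to 0.034 for EIF3L, -0.056 to 0.026 for EIF2S1, -0.051 to 0.013 for EIF4A1, -0.047 to 0.11 for EIF4A3, -0.23 to 0.022 for EIF4EBP2, -0.12 to 0.0081 for EIF4ENIF1 and -0.053 to 0.037 for EIF5A2. The cause was not tested. EIF5B was 0.36 to 0.47 in every setting. Depth limits EIF2AK1 and EIF4EBP3, which had under 100 reads in every library. It also limits EIF1AD, EIF2B5, EIF4EBP2 and EIF2AK3 in large-follicle library 3, where they had 95, 86, 55 and 48 reads.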
